A study of Mus musculus with 64 samples.

Results

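The genes of the NMDA receptor subunits were followed in 64 RNA-seq libraries from the brain of *Cyfip2* knock-in and wild-type mice. The members are the rows of the expression table whose Ensembl IDs stand for *Grin1*, *Grin2a*, *Grin2b*, *Grin2c*, *Grin2d* and *Grin3a* in the GENCODE annotation of the mouse genome GRCm38. All 6 were found, out of 18432 genes in the table. They were chosen by name. The ratio of *Grin2b* to *Grin2a* was computed in each library as well.

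Mice of the strain C57BL/6N were heterozygous for a knock-in of Arg87Cys at *Cyfip2* (KI), a regulator of actin assembly, or were wild-type (WT) littermates, and no other allele or agent was named. Frontal cortex and hippocampus were dissected from both hemispheres of each mouse at postnatal week (PWK) 1, 7, 14 or 28. Each of the 16 groups of genotype, region and age held 4 libraries from 4 mice, so that the cortex and hippocampus libraries of an age and genotype share mice. The study placed these ages along the course of seizures in KI mice, from neonatal spasms through a seizure-free time to recurrent seizures in adults, and asked how the brain transcriptome changes with it.

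NMDA receptors are glutamate-gated cation channels that pass calcium once depolarization has lifted their magnesium block, and they start many forms of synaptic plasticity. Each receptor is built from the obligatory GluN1 subunit, encoded by *Grin1*, together with GluN2 subunits, encoded by *Grin2a* to *Grin2d*, or GluN3 subunits. GluN1 and GluN3 bind glycine or D-serine and GluN2 binds glutamate. In the rodent forebrain GluN2B and GluN2D are known as the early GluN2 subunits and GluN2A as the one that comes up after birth, and this exchange shortens the synaptic current. GluN3A, encoded by *Grin3a*, is abundant in the young brain and lowers calcium entry and magnesium block. GluN2D is found in many interneurons of the adult forebrain.

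In the order above, the Ensembl IDs of the 6 genes are ENSMUSG00000026959, ENSMUSG00000059003, ENSMUSG00000030209, ENSMUSG00000020734, ENSMUSG00000002771 and ENSMUSG00000039579. All lie on the minus strand. *Grin1* spans chromosome 2, 25291181 to 25319187, *Grin2a* chromosome 16, 9567898 to 9995560, and *Grin2b* chromosome 6, 135713233 to 136173511. *Grin2c* spans chromosome 11, 115249169 to 115267243, *Grin2d* chromosome 7, 45831883 to 45878378, and *Grin3a* chromosome 4, 49661611 to 49845744 (all GRCm38). Each value sums the transcripts of a gene, so isoforms were not told apart. Some members overlap other annotated genes. *Grin2d* shares its span with *Kdelr1* and Gm45441 on the opposite strand, *Grin2b* with the antisense gene Gm26653, and *Grin3a* with *Ppp3r2* on the same strand.

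RefSeq start sites with promoter sequence (GRCm38.p6) were at hand for *Grin1*, *Grin2c* and *Grin2d*. Between PWK 1 and PWK 7 in WT mice *Grin1* and *Grin2c* rose and *Grin2d* fell, but the choice of these genes rests on the sequences at hand. The 250 bases before each start site are shown. They lie at chr2:25319188-25319437, chr11:115267244-115267493 and chr7:45866682-45866931, are given 5′ to 3′ on the minus strand, and carry the GC box GGGCGG (either strand) in capitals. The *Grin2d* start site used there lies within the gene's annotated span.
Grin1: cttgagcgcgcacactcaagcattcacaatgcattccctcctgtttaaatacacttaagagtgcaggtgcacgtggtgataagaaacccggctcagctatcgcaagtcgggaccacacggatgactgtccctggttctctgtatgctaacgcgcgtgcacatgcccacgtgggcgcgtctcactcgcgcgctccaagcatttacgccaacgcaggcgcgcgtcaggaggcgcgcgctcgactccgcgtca
Grin2c: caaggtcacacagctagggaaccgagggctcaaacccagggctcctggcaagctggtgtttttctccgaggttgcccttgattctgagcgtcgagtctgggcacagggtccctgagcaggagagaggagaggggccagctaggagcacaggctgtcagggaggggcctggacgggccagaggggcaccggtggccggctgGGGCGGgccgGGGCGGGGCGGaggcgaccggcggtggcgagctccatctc
Grin2d: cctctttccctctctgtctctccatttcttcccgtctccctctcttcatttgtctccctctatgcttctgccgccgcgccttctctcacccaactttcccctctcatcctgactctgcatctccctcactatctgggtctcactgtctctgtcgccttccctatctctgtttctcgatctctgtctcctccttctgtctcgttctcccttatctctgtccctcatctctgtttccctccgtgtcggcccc

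The *Grin2c* window held 3 GC boxes, at positions -50, -40 and -35 from the start site, and the *Grin1* and *Grin2d* windows held 0. A GC box was found in 32.7% of 32851 promoter windows of this length. G and C made up 58.8% of the *Grin1* window, 68.8% of the *Grin2c* window and 54.4% of the *Grin2d* window, against a median of 52.4%. The *Grin1* window had 27 CpG dinucleotides, the *Grin2c* window 15 and the *Grin2d* window 9, where the median window had 6. None of the 3 windows held a cyclic AMP response element, TGACGTCA (1.55% of all windows), or a TATA box, TATAAA (12.4%). These matches are letters in a window and were not tested as binding sites.

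The deposited values are levels that the authors scaled across all libraries, called normalized levels here. Their totals, 29200000 to 32600000 per library, are alike by construction and do not give the sequencing depth, so that precision was read from the spread of the 4 libraries of a group. Bulk tissue was measured, in which fewer cells of a type and less RNA per cell cannot be told apart. The dissection markers separated the regions in every library. The summed level of 4 hippocampal markers lay between 466 and 747 in the 32 cortical and between 5180.2 and 10621 in the 32 hippocampal libraries. The 5 cortical markers summed to between 11319.8 and 20981 in cortex and to between 2751 and 6949 in hippocampus. *Cyfip2* itself was no test of the labels, since the knock-in changes a codon. Its level was lower in KI than in WT cortex at PWK 28, 25727 ± 3577 against 34727 ± 608 (SD, n = 4; log2 difference -0.44 ± 0.087, adjusted p = 0.00580), and passed the test in no other genotype comparison. Some libraries stood apart by markers of other tissue or cell types. The 5 choroid plexus and ependyma markers, among them *Ttr*, which carries thyroid hormone, summed to between 481 and 122705 in hippocampal libraries and reached 21379 in WT cortex PWK 28 replicate 2, against at most 1160.1 in the other 31 cortical libraries. In KI hippocampus PWK 14 replicate 1 the 6 astrocyte markers summed to 194146 and the 7 microglial markers to 28241, while the other 3 libraries of its group lay at 74267 to 85358 and 10043.7 to 14683. For some of the members and partner genes, KI against WT results at these ages are also given without WT cortex PWK 28 replicate 2 or KI hippocampus PWK 14 replicate 1. The choroid plexus sums of hippocampal KI and WT libraries overlapped at every age, among them 36311 and 122705 as the lowest and highest in WT at PWK 28 and 59480.3 and 101847 in KI. Most hippocampal libraries had sums far above those of cortex, so none was left out for it, and its part in the hippocampal values was not tested.

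**Figure D1:**
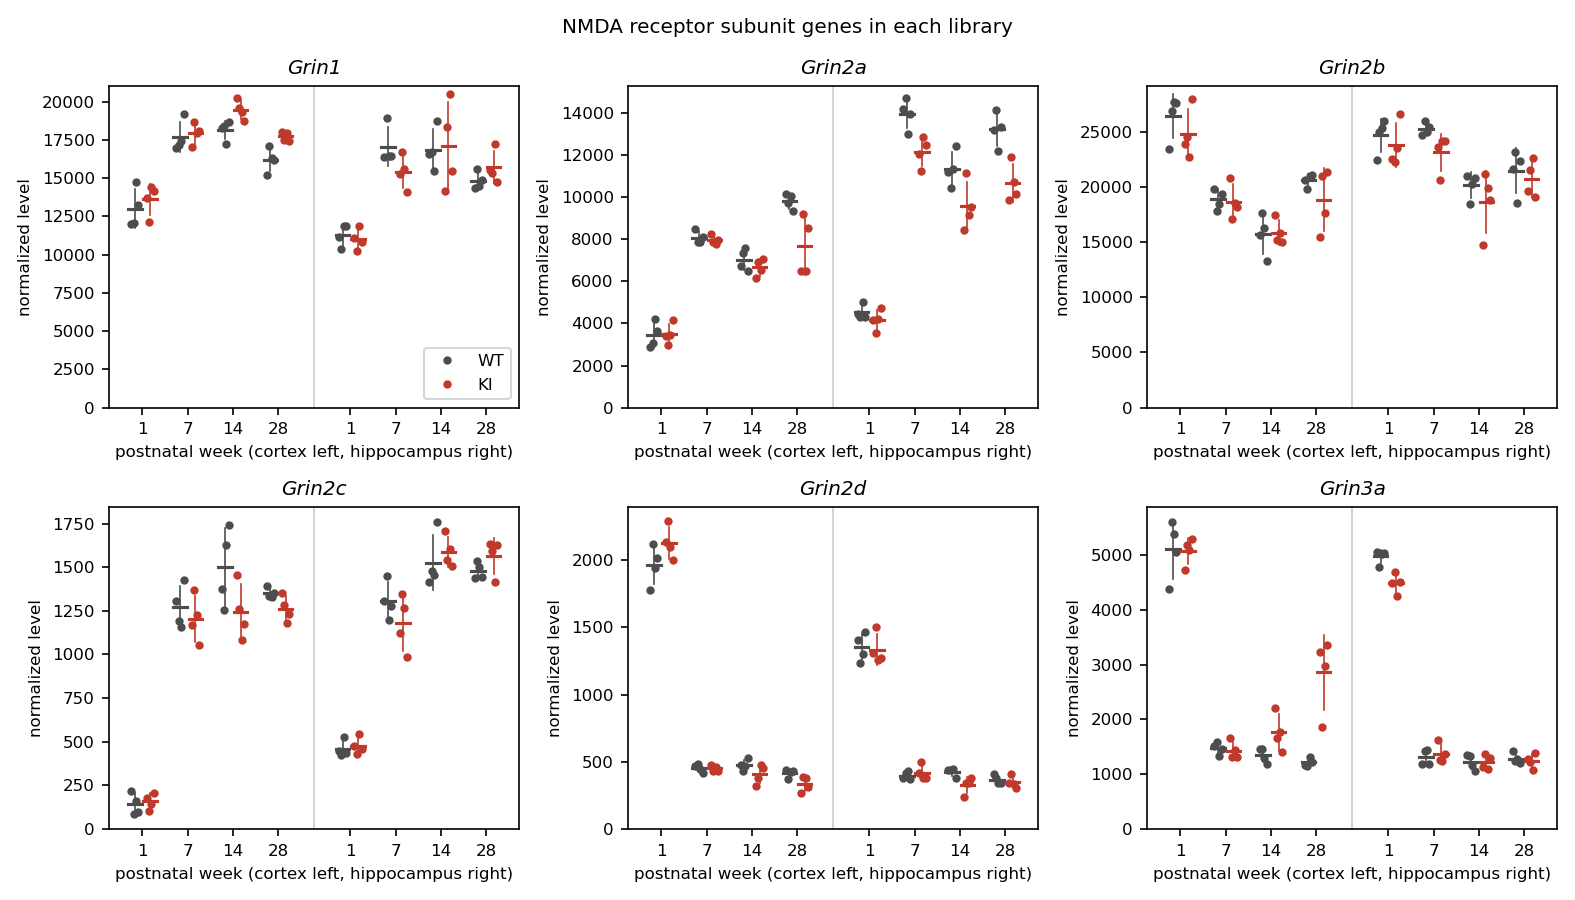
Normalized level of each subunit gene (y axis, linear, from 0) in each of the 64 libraries by postnatal week, with cortex on the left and hippocampus on the right of each panel; points are libraries (WT grey, KI red), horizontal bars group means and vertical bars the SD (n = 4). *Grin2a* and *Grin2c* were low at PWK 1, *Grin2d* and *Grin3a* were high at PWK 1, and KI *Grin3a* in cortex at PWK 28 lay between 1859 and 3360.0, above all 4 WT libraries.

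The order of the 6 genes was set on levels per kilobase of exon, since longer genes collect more reads. In WT mice *Grin1*, the obligatory subunit, had the highest level per kilobase at every age and in both regions, from 1164 ± 73.6 (SD, n = 4) in hippocampus at PWK 1 to 1870.0 ± 62.9 in cortex at PWK 14. *Grin2b* was next in all 8 WT groups, at 1063 ± 79.9 per kilobase in cortex at PWK 1 and 829.7 ± 23.9 at PWK 28. The next place changed with age. At PWK 1 it was held by *Grin3a*, with 416 ± 43.5 per kilobase in cortex and 405 ± 10.1 in hippocampus, above *Grin2d*, *Grin2a* and *Grin2c*. From PWK 7 on *Grin2a* came after *Grin2b*, followed by *Grin2c*, *Grin3a* and *Grin2d*. Neighbours in this order overlapped between their 4 libraries in 1 place, *Grin2b* and *Grin2a* in hippocampus at PWK 28, with 863 ± 82.0 and 737 ± 44.9 per kilobase. With the longest transcript as the gene length, a choice made after seeing the data, *Grin2a* came before *Grin2b* in that group.

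The share of each GluN2 gene in their summed level per kilobase describes the change with age in WT mice. In cortex the share of *Grin2b* was 67.3 ± 0.82% (SD, n = 4) at PWK 1 and 49.6 ± 0.54% at PWK 7. The share of *Grin2a* was 12.1 ± 1.5% at PWK 1 and 29.5 ± 0.56% at PWK 7. For *Grin2c* the share went from 1.82 ± 0.94% to 16.5 ± 1.0% and for *Grin2d* from 18.7 ± 1.1% to 4.45 ± 0.41%. The hippocampus had the same order of shares at PWK 7 and already held more *Grin2c* at PWK 1, 5.93 ± 0.51%. From PWK 7 to PWK 28 the *Grin2b* share stayed between 44.2% and 49.6% in the group means of both regions. The GluN2 genes together were at 118 ± 7.7% of the level of *Grin1* per kilobase in the youngest cortex and at 84.1 ± 5.2%, 74.7 ± 6.0% and 103 ± 6.7% at the later ages. In hippocampus they were at 132 ± 6.7%, 121 ± 5.2%, 104 ± 6.9% and 127 ± 5.9% in order of age. The mean of PWK 14 was lowest in both regions, but its libraries overlapped those of PWK 7 in both, and no test was run. These percentages rest on 9700 bases of exon for *Grin1*, whose longest transcript has 4276 bases. They would be lower with longest transcripts as lengths, so whether the GluN2 genes together stood above or below *Grin1* is not settled here.

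**Figure D2:**
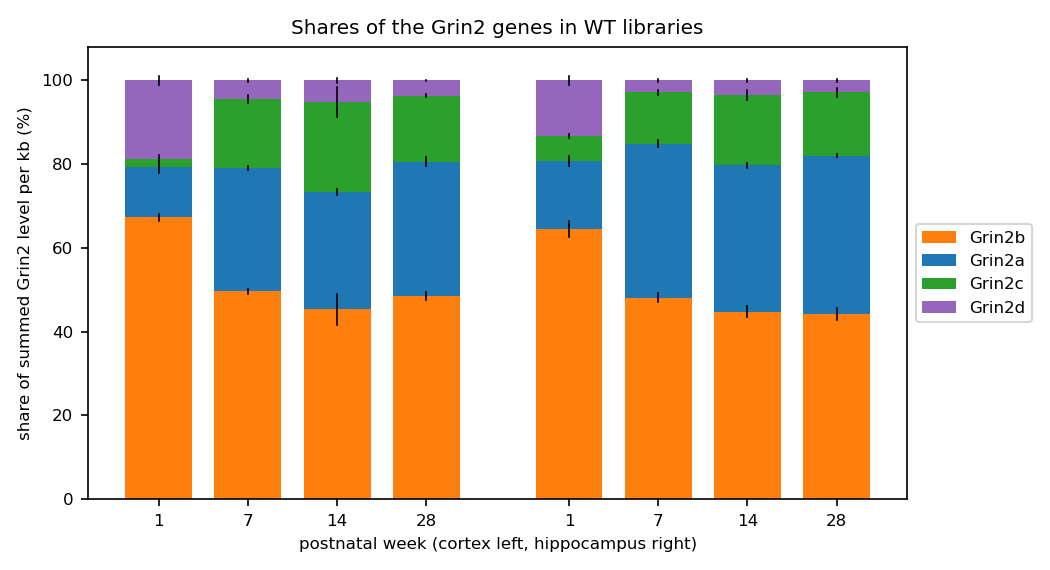
Share of *Grin2a*, *Grin2b*, *Grin2c* and *Grin2d* in their summed level per kilobase of exon (y axis, percent) in WT libraries by postnatal week, cortex on the left and hippocampus on the right; each segment is a group mean (n = 4) and the black bar at its upper edge its SD. *Grin2b* held 67.3% in cortex at PWK 1 and 49.6% at PWK 7.

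Most of the change in WT mice lay between PWK 1 and PWK 7. In cortex all 6 genes passed the test, 3 of them higher and 3 lower at PWK 7, and in hippocampus 5 of 6 did, 3 higher and 2 lower. Steps were tested with limma on log2(level + 1) across all genes, with Benjamini-Hochberg adjusted p under 0.05 as the threshold and log2 differences given ± SE. Most genes in the table changed over this interval, 65.5% of them in cortex and 62.2% in hippocampus. Later steps took in fewer genes. Between PWK 7 and PWK 14, 1 member passed in cortex, where 5.31% of all genes did, and 2 members passed in hippocampus, where 5.57% did. Between PWK 14 and PWK 28, 2 members passed in cortex, against 15.3% of all genes, and 1 in hippocampus, against 11.6%. Of the genes called between PWK 14 and PWK 28, 44.3% were higher at PWK 28 in cortex and 39.7% in hippocampus, and 63.2% and 56.2% with libraries scaled to equal totals. Neighbouring steps share the libraries of the age between them, and age cannot be told apart from any difference in handling between ages.

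*Grin1*, without which no NMDA receptor reaches the membrane, had the narrowest range of WT group means, the highest being 1.61 times the lowest. Its 4 cortical libraries stood at 12017, 12032, 14718 and 13217 at PWK 1 and at 16942, 17189.7, 17427 and 19164 at PWK 7. The groups did not overlap, and the step was 0.45 ± 0.060, adjusted p = 3.16e-06. In hippocampus the means were 11290.1 ± 714 and 17057 ± 1261 (SD, n = 4), a step of 0.59 ± 0.061, adjusted p = 1.60e-07. From PWK 7 on the group means of both regions ran from 14827 in hippocampus at PWK 28 to 18139 in cortex at PWK 14. Each group in that span overlapped its neighbour in the order of levels, and no later step of *Grin1* passed the test.

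*Grin2b* encodes a GluN2 subunit with long-lasting currents that is the main early partner of GluN1. In cortex its libraries stood at 23466, 26889, 27674 and 27560.3 at PWK 1, and at 19829, 17803, 18419 and 19396 at PWK 7. They stood at 15654, 17598, 16313 and 13292 at PWK 14 and at 20593, 19779, 21027 and 21045 at PWK 28. It fell over the first interval (-0.48 ± 0.071, adjusted p = 8.46e-06) and the next (-0.27 ± 0.071, adjusted p = 0.0344) and rose over the last (0.40 ± 0.071, adjusted p = 0.00119). The step from PWK 7 to PWK 14 rests on few libraries: it lost its call when replicate 1 or 4 of PWK 14 or replicate 1, 3 or 4 of PWK 7 was left out, with log2 differences from -0.33 to -0.19 over all 8 omissions. It also lost it with all 64 libraries in 1 fit and with the replicate number as a block. Without WT cortex PWK 28 replicate 2 the last step was 0.42 ± 0.078 (adjusted p = 0.00234). In hippocampus *Grin2b* was 24657 ± 1531 at PWK 1 and 25259.8 ± 560.1 at PWK 7, a log2 difference of 0.037 ± 0.062, adjusted p = 0.629, and the libraries overlapped. Whether this step differed between the regions was not tested. Hippocampal *Grin2b* then fell to 20152 ± 1163 at PWK 14 (-0.33 ± 0.062, adjusted p = 0.00583) and stood at 21439 ± 2036 at PWK 28. The highest of the 8 WT group means was 1.68 times the lowest, with cortex at PWK 1 first and cortex at PWK 14 last, and neighbours in the order overlapped except for cortex at PWK 7 and PWK 14.

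*Grin2a* encodes the GluN2 subunit with fast-decaying currents. Its WT libraries in cortex stood at 2864, 3054, 4230.2 and 3619 at PWK 1 and at 8481, 7854, 7864 and 8106 at PWK 7, so that every later library lay above every early one (1.25 ± 0.088, adjusted p = 5.15e-10). In hippocampus the same step went from 4470.2, 4286, 5042 and 4284 to 14196, 14692, 13025 and 13959 (1.63 ± 0.061, adjusted p = 2.97e-13). Hippocampal *Grin2a* was then lower at PWK 14, 11347 ± 813 (-0.30 ± 0.061, adjusted p = 0.00886), and higher again at PWK 28, 13223 ± 806 (0.22 ± 0.061, adjusted p = 0.0271). The former call was lost with all 64 libraries in 1 fit (adjusted p = 0.0798). The latter was lost in that fit (adjusted p = 0.161), with the replicate block, and without replicate 1, 2 or 4 of PWK 28 or replicate 1 or 2 of PWK 14, with log2 differences from 0.18 to 0.27 over the 8 omissions. Cortical *Grin2a* was 7033 ± 511 at PWK 14 and rose to 9826 ± 369 at PWK 28 (0.48 ± 0.088, adjusted p = 0.00135), and by 0.49 ± 0.097 (adjusted p = 0.00363) without WT cortex PWK 28 replicate 2. The 3 hippocampal groups from PWK 7 on held the first 3 places among the 8 WT groups, and the highest mean was 4.06 times the lowest.

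*Grin2c* and *Grin2d*, the less abundant GluN2 genes, moved in opposite directions between PWK 1 and PWK 7. *Grin2c*, best known for its expression in cerebellum, stood at 221, 86.4, 163 and 95.6 in cortex at PWK 1 and at 1304, 1194, 1159 and 1424 at PWK 7. This was the widest step of any member, 3.26 ± 0.20, adjusted p = 9.87e-11, and the groups were far apart. In hippocampus it went from 459 ± 46.8 to 1308 ± 105 (1.51 ± 0.077, adjusted p = 1.59e-11). *Grin2d*, which gives receptors with very slow currents, stood at 1778, 2124, 1946 and 2014 in cortex at PWK 1 and at 468, 482, 444 and 415 at PWK 7 (-2.12 ± 0.077, adjusted p = 5.79e-14). In hippocampus its means were 1352 ± 102 and 398 ± 29.4 (-1.76 ± 0.081, adjusted p = 3.80e-12). Neither gene passed the test at a later step in WT mice. From PWK 7 on *Grin2c* means lay between 1270.1 and 1527 and *Grin2d* means between 368 and 478 in both regions, and neighbouring groups overlapped except for *Grin2c* in hippocampus and cortex at PWK 28.

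*Grin3a*, whose product makes receptors that pass little calcium, fell from PWK 1 to PWK 7, to 0.289 of its level in cortex and 0.263 in hippocampus. Its cortical libraries stood at 4374, 5603, 5374 and 5059 at PWK 1 and at 1522, 1585, 1324 and 1457 at PWK 7 (-1.79 ± 0.080, adjusted p = 9.94e-13). The hippocampal ones stood at 5056, 4789, 5019 and 5030.4 and at 1191, 1418, 1451 and 1189 (-1.93 ± 0.082, adjusted p = 1.45e-12). The later WT levels were alike. The 6 group means of PWK 7 to PWK 28 lay between 1215 and 1472, all neighbours among them overlapped, and no later step passed the test.

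*Grin2a* was the member that separated the regions at every age in WT mice. WT hippocampus was compared with WT cortex at each age, with positive values for higher levels in hippocampus. *Grin2a* was higher in hippocampus at PWK 1 (0.41 ± 0.11, adjusted p = 0.0116), PWK 7 (0.79 ± 0.044, adjusted p = 9.95e-08), PWK 14 (0.69 ± 0.065, adjusted p = 5.95e-06) and PWK 28 (0.43 ± 0.048, adjusted p = 2.76e-05). *Grin2b* was higher in hippocampus at PWK 7 (0.42 ± 0.040, adjusted p = 6.83e-06) and PWK 14 (0.36 ± 0.080, adjusted p = 0.00368). At PWK 1 *Grin2c* was higher in hippocampus (1.79 ± 0.25, adjusted p = 0.000201) and *Grin2d* lower (-0.54 ± 0.068, adjusted p = 9.50e-05). In order of age, 4, 2, 2 and 3 of the 6 members passed, where 34.7%, 40.8%, 34.6% and 37.8% of all genes did. Of the genes called at PWK 1, 46.3% were higher in hippocampus, 66.6% with libraries scaled to equal totals and 36.6% after correction for GC content and length. The smaller calls were sensitive to the analysis. *Grin1* at PWK 1 (-0.20 ± 0.069, adjusted p = 0.0432) and at PWK 28 (-0.13 ± 0.044, adjusted p = 0.0396) lost the call once libraries were scaled to equal totals. The former also lost it without replicate 1, 2 or 3 of hippocampus or 3 or 4 of cortex, and the latter without replicate 1, 3 or 4 of hippocampus or 2, 3 or 4 of cortex. *Grin2c* at PWK 28 (0.13 ± 0.044, adjusted p = 0.0359) lost the call without replicate 2 or 3 of hippocampus or replicate 2, 3 or 4 of cortex. These *Grin1* and *Grin2c* calls of PWK 28 were also lost with all 64 libraries in 1 fit. Without cortex replicate 2 *Grin2a* was at 0.42 ± 0.054 (adjusted p = 0.00014) at PWK 28. With KI libraries in place of WT, *Grin2a* lost the call at PWK 1 (0.26 ± 0.10, adjusted p = 0.0657) and kept it at the later ages. *Grin2b* then kept the call at PWK 7 and lost it at PWK 14 (0.22 ± 0.11, adjusted p = 0.176). The libraries of both regions came from the same mice, which this test does not use.

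The ratio of *Grin2b* to *Grin2a* levels, a common index of the exchange, was above 5 in every WT library at PWK 1 and below 2.5 in every later one, and it was lower in hippocampus than in cortex. In WT cortex the ratio of normalized levels was 8.19, 8.80, 6.54 and 7.62 in the 4 libraries of PWK 1 and 2.34, 2.27, 2.34 and 2.39 in those of PWK 7. In WT hippocampus it was 5.02, 5.82, 5.02 and 6.05 at PWK 1 and 1.74, 1.77, 1.92 and 1.82 at PWK 7. In both regions every PWK 1 library lay above every PWK 7 library. The difference of the log2 ratio was -1.73 ± 0.093 in cortex and -1.59 ± 0.077 in hippocampus (± SE; two-sided exact permutation test, p = 0.0286 each). With 4 libraries against 4, 0.0286 is the smallest p that this test can give, and after adjustment over 6 age steps it came to 0.0571 and missed the threshold. While other age steps overlapped, that floor allowed no lower adjusted value. Later the means in cortex were 2.23 ± 0.16 at PWK 14 and 2.10 ± 0.11 at PWK 28 (SD, n = 4), with overlapping libraries. In hippocampus they were 1.78 ± 0.082 and 1.62 ± 0.068, without overlap (log2 difference -0.14 ± 0.045, exact permutation p = 0.0286, adjusted p = 0.0571). The ratio in hippocampus was below that in cortex at every age, with log2 differences of -0.50 ± 0.12, -0.37 ± 0.035, -0.33 ± 0.061 and -0.37 ± 0.047 from the youngest to the oldest mice and no overlap at any age (exact permutation p = 0.0286 and adjusted p = 0.0286 over 4 ages). With replicate numbers as pairs each of these p-values was 0.125, the smallest that 4 pairs allow.

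**Figure D3:**
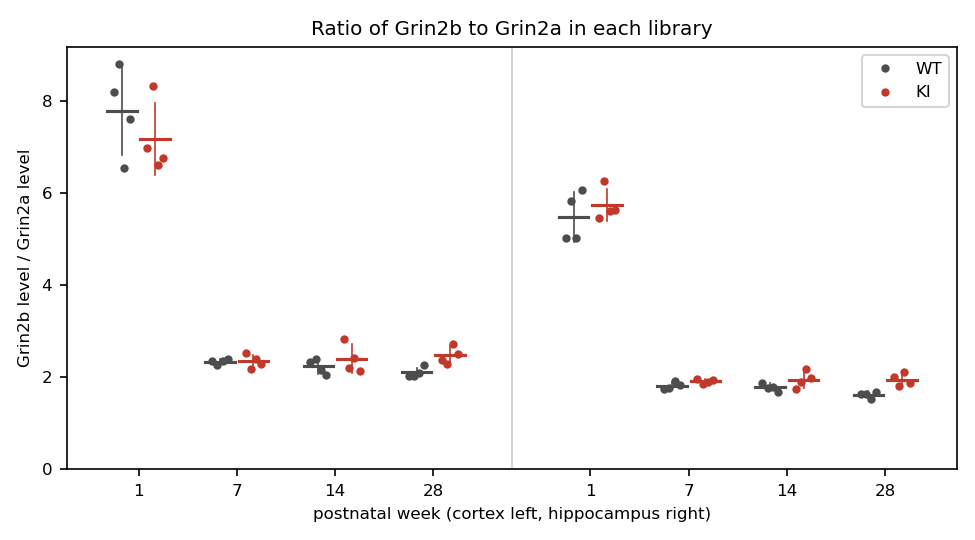
Ratio of *Grin2b* to *Grin2a* normalized levels (y axis, linear, from 0) in each library by postnatal week, cortex on the left and hippocampus on the right; points are libraries (WT grey, KI red), horizontal bars group means and vertical bars the SD (n = 4). WT libraries ran from 5.02 to 8.80 at PWK 1 and from 1.74 to 2.39 at PWK 7. At PWK 28 every KI library lay above every WT library of its region.

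KI mice were then compared with WT littermates at each age and region, the comparison at the centre of the study. At PWK 1 and PWK 7 no member passed the test in either region. Of all genes tested, 0.00546% passed in cortex and 0.0109% in hippocampus at PWK 1, and 0.00545% and 0.0218% at PWK 7, so that hardly any gene did. At an unadjusted p under 0.05, limma gave 0 members in cortex at both ages, 1 in hippocampus at PWK 1 (*Grin3a*) and 3 in hippocampus at PWK 7 (*Grin1*, *Grin2a* and *Grin2b*). The share of all genes at that unadjusted threshold was not computed, so these counts cannot be set beside the shares above. Some of these groups did not overlap. Hippocampal *Grin3a* at PWK 1 was 4481 ± 184 in KI against 4974 ± 124 in WT (-0.15 ± 0.038, adjusted p = 0.808), and hippocampal *Grin2a* at PWK 7 was 12156 ± 692 against 13968 ± 699 (-0.20 ± 0.054, adjusted p = 0.594). In both cases the highest KI library stood below the lowest WT library. In cortex the KI means at PWK 1 were 13604 ± 1022 for *Grin1*, 24765 ± 2264 for *Grin2b* and 3487 ± 492 for *Grin2a*, and the rarer *Grin2c* and *Grin2d* were at 159.6 ± 44.5 and 2131 ± 119. Each of these cortical groups overlapped its WT group. The early exchange was also seen among KI mice alone. With KI libraries in place of WT, the steps from PWK 1 to PWK 7 kept their direction and their call for the 6 members in cortex and the 5 in hippocampus.

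At PWK 14 no member passed the test, although 5.18% of all genes did in cortex (2.48% higher and 2.7% lower in KI) and 15.6% did in hippocampus (7.64% higher and 7.95% lower). limma gave 2 members at an unadjusted p under 0.05 in cortex (*Grin2c* and *Grin3a*) and 2 in hippocampus (*Grin2a* and *Grin2d*), without a share of all genes at that threshold to set beside them. Of all called genes in cortex, 47.8% were higher, and 60.4% with libraries scaled to equal totals; in hippocampus 49.0% were higher, and 35.6% after correction for GC content and length. Cortical *Grin3a* stood at 2216, 1665, 1769 and 1408 in KI and at 1455, 1453, 1294 and 1196 in WT. Of the 4 KI libraries 3 lay above all WT libraries and 1 within their range (0.37 ± 0.12, adjusted p = 0.109). It passed the test when all 64 libraries were fitted together, with the replicate number as a block (alone or with correction for GC content and length), and without KI replicate 4, the library within the WT range. KI and WT libraries of equal number are different mice with no stated link, so the block has no known meaning here. Hippocampal *Grin2a* stood at 8432, 11168, 9142 and 9549 in KI and at 11179, 10441, 11354 and 12412 in WT, with overlap (-0.25 ± 0.091, adjusted p = 0.0931), and passed the test without KI replicate 2 and with all 64 libraries in 1 fit (adjusted p = 0.0382). Hippocampal *Grin2d* stood at 240.4, 344, 345 and 378 in KI and at 438, 442, 445 and 379.5 in WT, without overlap (-0.40 ± 0.14, adjusted p = 0.0882), and passed with all 64 libraries in 1 fit (adjusted p = 0.00375). Both genes were lowest in KI replicate 1, the library with the high astrocyte and microglial markers. Without it the differences were -0.19 ± 0.083 for *Grin2a* (adjusted p = 0.145) and -0.26 ± 0.094 for *Grin2d* (adjusted p = 0.0893), and still no member passed. In this region and age all 4 WT libraries had astrocyte sums between 42123 and 46289, below every KI library, and the part of this in the *Grin2a* and *Grin2d* values was not tested.

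At PWK 28 *Grin3a* in KI cortex was at 2.29 times its WT level. The 4 KI libraries stood at 3237, 1859, 2974 and 3360.0 and the 4 WT libraries at 1178, 1143, 1308 and 1229. All KI libraries lay above all WT libraries, and KI replicate 2 was the nearest to them. The log2 difference was 1.20 ± 0.16, adjusted p = 0.000781, in a comparison in which 22.2% of all genes passed (12.2% higher and 10% lower). Of all called genes 54.8% were higher, and 43.7% with libraries scaled to equal totals. *Grin3a* passed the test under all 10 alternative analyses, with values from 1.15 to 1.23, and with each of the 8 libraries left out in turn, with values from 1.11 to 1.39. The KI level lay between the low level of the other adult groups and the level of KI cortex at PWK 1, 5073 ± 239 (SD, n = 4). In hippocampus at the same age *Grin3a* stood at 1271, 1231, 1076 and 1381 in KI and at 1432, 1244, 1272 and 1198 in WT, and the groups overlapped (-0.056 ± 0.082, adjusted p = 0.700). The KI effect on *Grin3a* differed between the regions, by -1.25 ± 0.20 in hippocampus relative to cortex (interaction term, adjusted p = 0.00163), and this held under all 10 alternatives and all 16 omissions.

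Markers of inhibitory neurons moved in the same cortical libraries. Of the 8 inhibitory markers at PWK 28, 4 were higher in KI (*Sst* by 1.22, *Gad2* by 1.15, *Slc32a1* by 0.65 and *Pvalb* by 0.39 on the log2 scale), 1 was lower (*Vip* by -0.66) and 3 did not pass. The summed level of the 8 ranged between 22729 and 29879.8 in WT and between 31137 and 45998 in KI, with KI replicate 2 again the lowest of the KI libraries. The least abundant of them, *Lhx6*, a transcription factor of *Sst* and *Pvalb* neurons, was at 496.6 in KI and 499.7 in WT on average. The 4 excitatory markers summed to between 61320.0 and 68947 in WT and between 86669.5 and 106399.9 in KI, 2 of them higher (*Slc17a7* by 0.89 and *Neurod2* by 0.43), and the 6 pan-neuronal markers to between 160089 and 170316 and between 166181 and 174200.1, none of which passed. At PWK 14 in cortex 4 of the 8 inhibitory markers were higher and 1 lower as well, with sums between 19925 and 21525 in WT and between 24745 and 32667 in KI. No marker of these lists was at 0, and the part of these shifts in the *Grin3a* values was not tested.

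*Grin2a* was lower in KI mice at PWK 28 in both regions. In hippocampus the KI libraries stood at 9869.9, 11932, 10728 and 10166 and the WT libraries at 13209.5, 14148, 12186 and 13347, without overlap, a KI level 0.81 times that of WT (-0.31 ± 0.064, adjusted p = 0.00805). In this comparison 15.8% of all genes passed (8.92% higher and 6.91% lower), and the call held under all 10 alternatives and all 8 omissions. Of all called genes 56.3% were higher, and 40.6% with libraries scaled to equal totals. In cortex the KI libraries stood at 6511, 9199.6, 6469.8 and 8527 and the WT libraries at 10144, 9742, 10079 and 9341. All KI libraries lay below all WT libraries, at 0.77 times their level (-0.37 ± 0.11, adjusted p = 0.0328). The cortical call was lost without KI replicate 1 or 3 or any 1 of the 4 WT libraries, with values from -0.47 to -0.30. Without WT replicate 2, the library with choroid plexus markers, *Grin2a* was at -0.38 ± 0.13 (adjusted p = 0.0706) and *Grin3a* at 1.17 ± 0.18 (adjusted p = 0.00403). Without KI replicate 2 *Grin2a* was at -0.47 ± 0.092 (adjusted p = 0.00472) and *Grin3a* at 1.39 ± 0.070 (adjusted p = 3.88e-06).

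In the hippocampus at PWK 28 some markers of glia and of neuron types were also higher in KI. The 6 astrocyte markers summed to between 43322 and 45060.4 in WT and between 71992 and 83993 in KI, with 2 of 6 called (*Gfap* by 2.00 and *Aqp4* by 0.62), and 5 of 7 microglial markers were higher, with sums between 10588 and 11506 and between 12879 and 14980.4. The 6 pan-neuronal markers summed to between 129688 and 136634 in WT and between 130259 and 143163 in KI, with 1 of 6 called, *Elavl4*, and it was higher. The 4 excitatory markers summed to between 55432 and 61481 in WT and between 64520.5 and 72782 in KI, with 1 of 4 called (*Slc17a7* by 0.40). The 8 inhibitory markers summed to between 18394 and 20313 and between 22493 and 25777, with 3 of 8 called (*Slc32a1* by 0.72, *Gad2* by 0.51 and *Gad1* by 0.25). Both sums were higher in every KI library than in every WT library. Over the single genes of a list, the median log2 difference was 0.031 for excitatory, 0.15 for inhibitory and 0.062 for pan-neuronal markers. It was 0.27 for astrocyte and 0.36 for microglial markers. Of the 4 hippocampal markers 1 was higher and 1 lower, with a median of -0.30. The least abundant of these glial markers, *Aif1*, was at 130.2 in KI and 84.5 in WT on average. The part of these shifts in the *Grin2a* value was not tested.

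The other members did not pass at PWK 28, apart from cortical *Grin2d* with all 64 libraries in 1 fit (adjusted p = 0.0217). Cortical *Grin1* stood at 18042, 17475, 17957 and 17449.7 in KI and at 15216, 17091, 16324 and 16174 in WT, with no overlap (0.13 ± 0.050, adjusted p = 0.0867). Cortical *Grin2d* stood at 266, 385, 382 and 315 in KI and at 439, 370.5, 426 and 429.9 in WT, and the ranges overlapped (-0.32 ± 0.13, adjusted p = 0.104). *Grin2b* was at 18848 ± 2823 in KI and 20611 ± 593 in WT cortex (-0.14 ± 0.095, adjusted p = 0.317) and at 20716 ± 1628 and 21439 ± 2036 in hippocampus (-0.048 ± 0.074, adjusted p = 0.718). *Grin2c* was at 1261 ± 74.3 and 1351 ± 27.9 in cortex (-0.10 ± 0.062, adjusted p = 0.277) and at 1566 ± 104 and 1478 ± 47.5 in hippocampus (0.081 ± 0.059, adjusted p = 0.389).

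**Figure D4:**
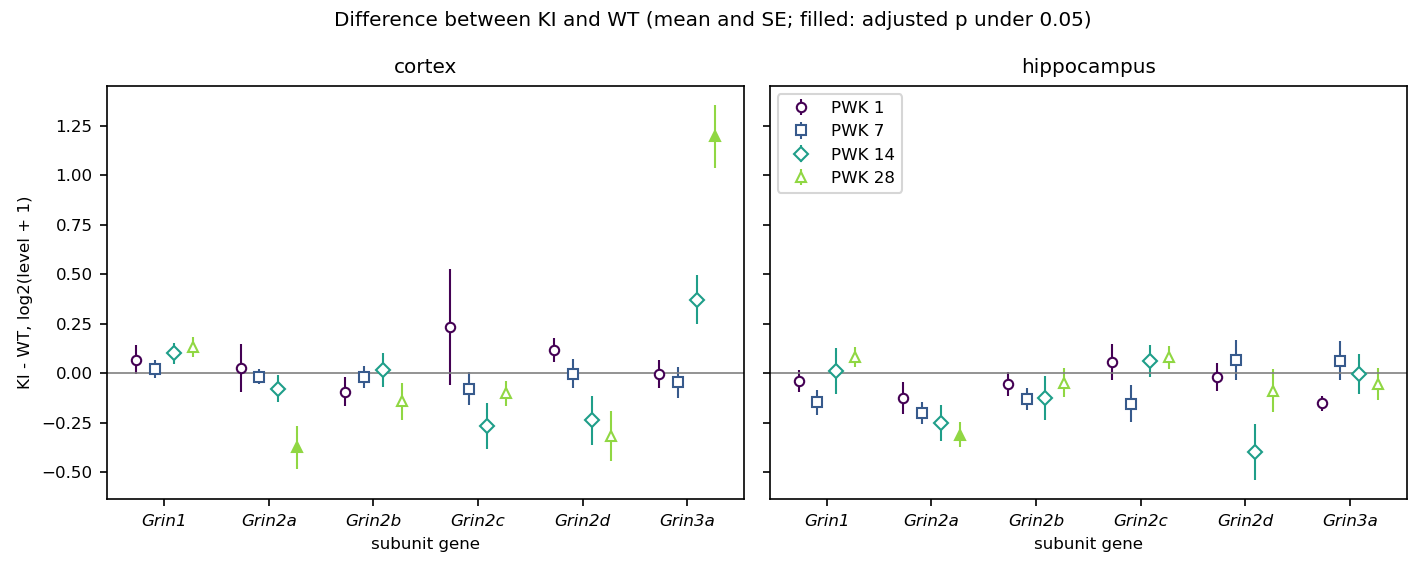
Difference of KI from WT (y axis, log2 of normalized level + 1) for each subunit gene (x axis), cortex on the left and hippocampus on the right; points are limma estimates with a colour and shape for each postnatal week, bars are ± SE (4 KI and 4 WT libraries), and filled points passed the test at an adjusted p under 0.05. The filled points are *Grin3a* in cortex at PWK 28 (1.20) and *Grin2a* at PWK 28 in cortex (-0.37) and hippocampus (-0.31).

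Whether the KI effect itself differed between regions or ages was tested with interaction terms. Apart from *Grin3a* at PWK 28, no member passed in any of the 4 comparisons of regions, in which 0%, 0.00543%, 2.85% and 4.57% of all genes passed, in order of age. Between ages no member passed either. The share of all genes that passed was 3.18% for PWK 14 against PWK 7 and 0% for PWK 28 against PWK 14 in cortex, and 10.3% and 0% in hippocampus. The 0% rests on the fit: with all 64 libraries in 1 fit, 913 genes passed for PWK 28 against PWK 14 in cortex (908 with library weights) and 469 in hippocampus. At an unadjusted p under 0.05 limma gave, between regions, 0 members at PWK 1, 1 at PWK 7 (*Grin2a*) and 2 each at PWK 14 and PWK 28 (*Grin2c* and *Grin3a*). Between ages it gave 1 and 2 members in cortex (*Grin3a*, then *Grin2a* and *Grin3a*) and 1 and 0 in hippocampus (*Grin2d*). Here too the share of all genes at the unadjusted threshold was not computed, and the shares above do not apply to these counts. The *Grin3a* effect in cortex was larger at PWK 28 than at PWK 14 by 0.83 ± 0.22, adjusted p = 0.119, which passed without KI replicate 2 of PWK 28 or KI replicate 1 of PWK 14, with all 64 libraries in 1 fit and with library weights. With all 64 libraries in 1 fit the *Grin2d* effect in hippocampus also differed between PWK 7 and PWK 14 (adjusted p = 0.0307). No interaction call changed without WT cortex PWK 28 replicate 2 or KI hippocampus PWK 14 replicate 1. The *Grin2a* effect was not shown to be specific to an age or region by these terms.

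The ratio of *Grin2b* to *Grin2a* at PWK 28 stood higher in every KI library than in every WT library of its region, but the difference did not pass the test after adjustment. In cortex it was 2.37, 2.28, 2.72 and 2.51 in KI and 2.03, 2.03, 2.09 and 2.25 in WT. In hippocampus it was 1.99, 1.80, 2.11 and 1.88 in KI and 1.64, 1.64, 1.52 and 1.68 in WT. The log2 ratio differed by 0.23 ± 0.066 in cortex and by 0.26 ± 0.057 in hippocampus (exact permutation p = 0.0286 each, the smallest possible), and the adjusted p of 0.114 over 8 genotype comparisons did not pass. With overlap in the other comparisons, that floor left no lower adjusted p within reach, so the miss does not show that the ratios were alike. At PWK 1, 7 and 14 the KI and WT libraries overlapped in both regions, with log2 differences from -0.12 to 0.13 and adjusted p from 0.305 to 1. Without KI hippocampus PWK 14 replicate 1 the difference at that age went from 0.13 to 0.18, and without WT cortex PWK 28 replicate 2 the cortical one at PWK 28 went from 0.23 to 0.22. In KI hippocampus the mean ratio was 1.90 ± 0.053 at PWK 7, 1.95 ± 0.18 at PWK 14 and 1.95 ± 0.13 at PWK 28, where the WT means were 1.81 ± 0.079, 1.78 ± 0.082 and 1.62 ± 0.068.

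The make-up of the GluN2 genes at PWK 28 is described per kilobase of exon, without a further test. In cortex the share of *Grin2a* was 28.6 ± 1.8% in KI and 32.1 ± 0.98% in WT (SD, n = 4), and that of *Grin2b* 50.9 ± 2.1% and 48.6 ± 0.94%. In hippocampus the share of *Grin2a* was 33.2 ± 1.2% in KI and 37.8 ± 0.32% in WT, and that of *Grin2b* 46.5 ± 2.0% and 44.2 ± 1.5%. The summed GluN2 level was 81.5 ± 12% of the *Grin1* level in KI cortex and 103 ± 6.7% in WT cortex, with no overlap between libraries. In hippocampus it was 111 ± 7.5% and 127 ± 5.9%, with overlap. The size of these percentages depends on the length taken for *Grin1*, as in the WT groups above.

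Genes that work with NMDA receptors were taken from a list of 29. The list was chosen with earlier results of these data known, so its counts beside the share of all genes are no independent test. Its genes form 5 groups of scaffolds, kinases and phosphatases, signalling enzymes, co-agonist supply, and auxiliary, transport and regulatory proteins. None passed in the KI comparisons of PWK 1 and PWK 7. In cortex 2 were higher and 4 lower at PWK 14, and 4 higher and 8 lower at PWK 28, and in hippocampus 4 were higher and 4 lower at PWK 14, and 4 higher and 6 lower at PWK 28. Of all genes 5.18%, 22.2%, 15.6% and 15.8% passed in the same order. The median log2 difference of the list was -0.051, -0.065, -0.13 and -0.018, beside -0.0018, -0.0034, 0.0060 and 0.0037 for all genes tested. With libraries scaled to equal totals, 4 were higher and 11 lower in cortex at PWK 28, where 4152 genes passed against 4081 as reported. With all 64 libraries in 1 fit, 3 were higher and 7 lower in cortex at PWK 14, and 7 higher and 13 lower in hippocampus. That fit called more genes of every kind, 1946 and 6050 of 18432, against 951 and 2870 as reported. Without KI hippocampus PWK 14 replicate 1, 4 were higher and 6 lower there, where 17.4% of all genes passed. Without WT cortex PWK 28 replicate 2, 2 were higher and 7 lower in cortex, where 15.9% passed. Both omissions were chosen for these genes after seeing the data. Of the 6 scaffold genes, which anchor the receptor at the synapse, 0 were higher and 2 lower in cortex at PWK 28 and 0 higher and 1 lower in hippocampus, and of the 3 co-agonist genes none passed in either region. Of the 10 kinases and phosphatases 1 was higher and 2 lower in cortex, and 2 were higher and 1 lower in hippocampus.

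The partner genes called at PWK 28 included *Ptpn5*, a phosphatase that acts on GluN2B, which was higher in cortex (0.31, a value outside the rule for naming partner genes) and hippocampus (0.53). *Kif17*, the motor that carries GluN2B along dendrites, was higher in both as well (0.53 and 0.60), as was *Nos1*, the neuronal nitric oxide synthase of the receptor complex and of some interneurons (0.63 and 0.27). *Rasgrf1*, a calcium-dependent activator of Ras, was lower in cortex (-0.90) and hippocampus (-0.41). In cortex *Camk2a*, the kinase subunit that binds GluN2B (-0.72), and *Ephb2*, a receptor tyrosine kinase that clusters NMDA receptors (-0.68), were lower, and in hippocampus *Actn2*, an actinin that links the receptor to actin (-0.41), and *Rasgrf2* (-0.39). *Grin3b*, the other GluN3 gene, was called higher in cortex (1.51) at a level near the floor, 10.4 ± 4.01 in KI and 3.16 ± 1.96 in WT. The fourth gene called higher in hippocampus was *Fyn*, a kinase of GluN2 subunits (0.24), which the rule leaves out. Without WT cortex PWK 28 replicate 2, *Kif17* (0.61) and *Ptpn5* (0.35) were the genes still called higher in cortex. Among the lower genes named there, *Ephb2* lost its call (-0.64, limma adjusted p = 0.0592), and *Camk2a* (-0.70) and *Rasgrf1* (-0.91) kept theirs.

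At PWK 14 the cortical calls included *Nos1* (0.77) and *Ptpn5* (0.29) among the higher genes and *Camk2a* (-0.46), *Neto1*, an auxiliary protein of glutamate receptors (-0.36) and *Ephb2* (-0.34) among the lower ones. In hippocampus *Ptpn5* (0.55), *Kif17* (0.55), *Rest*, a repressor of neuronal genes (0.51), and, outside the rule for naming partner genes, *Slc7a10*, a D-serine transporter of astrocytes (0.51), were higher. *Ptk2b*, a calcium-dependent tyrosine kinase (-0.61), *Rasgrf1* (-0.58), *Dapk1*, a kinase that binds GluN2B (-0.35), and, outside the rule, the scaffold *Dlg2* (-0.21) were lower. Without KI hippocampus PWK 14 replicate 1, the library with the high astrocyte sum, *Slc7a10* was at 0.49 (adjusted p = 0.0123) and *Rest* lost its call (0.46, adjusted p = 0.0674). Comparisons of the 2 ages use separate mice, and those of the 2 regions use the same mice. In WT mice 11 of the 29 were higher and 11 lower at PWK 7 than at PWK 1 in cortex, and 16 higher and 8 lower in hippocampus, where 65.5% and 62.2% of all genes passed. From PWK 14 to PWK 28, 0 were higher and 11 lower in WT hippocampus, with a median log2 difference of -0.13, where 11.6% of all genes passed. The 11 became 4 after correction for GC content and length, 6 with all 64 libraries in 1 fit and 8 with quantile normalization. In these fits 1358, 1368 and 2161 genes passed, in the same order, against 2127 as reported. In WT cortex 0 were higher and 3 lower, where 15.3% passed. Without WT cortex PWK 28 replicate 2, 1 was higher and 2 lower, where 14% passed.

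**Figure D5:**
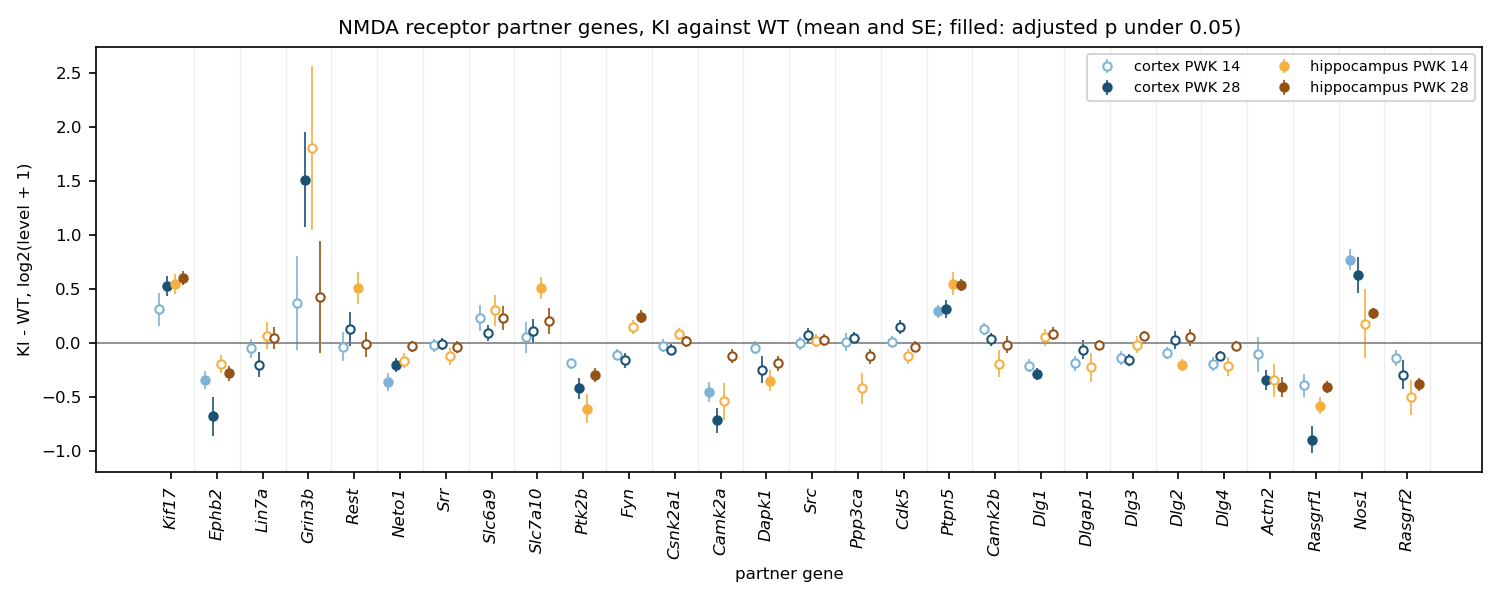
Difference of KI from WT (y axis, log2 of normalized level + 1) for 28 of the 29 partner genes (x axis) in cortex (blue) and hippocampus (orange to brown) at PWK 14 (light) and PWK 28 (dark); each point is a limma estimate, bars are ± SE (4 KI and 4 WT libraries), and filled points passed the test at an adjusted p under 0.05. Cortical *Rasgrf1* at PWK 28 (-0.90) was the lowest point, and the highest were those of *Grin3b*, a gene near the floor with wide error bars.

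The genes with the patterns most like those of the members were found over the 16 group means, as the root mean square difference of log2 levels after each gene was centred on its own mean, among 12327 protein-coding genes with a mean level of at least 100. For *Grin1* they included *Tubb4a* (0.057) and *Arfgef2* (0.068), against a spread of 0.24 of *Grin1* around its own mean. For *Grin2b* they were *Dicer1* (0.082), Gm45902 (0.096) and *Vps29* (0.10), with a spread of 0.22. For *Grin2a*, with a spread of 0.65, they were *Snx33* (0.18), *Tmcc3* (0.18) and *Gabpb2* (0.19). They were *Acat3* (0.18), *Evc2* (0.19) and *Gpd1* (0.24) for *Grin2c*, with a spread of 1.13, and 4931428F04Rik (0.10), *Deaf1* (0.12) and *Dact1* (0.15) for *Grin2d*, with a spread of 0.92. For *Grin3a*, with a spread of 0.82, they were *Slc7a1* (0.21), *Pkia* (0.23) and *Tubb5* (0.23). No other member stood among the 3 nearest genes of any member.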

How the data were processed

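RNA-seq libraries were made with a stranded kit, which the labels name as an mRNA kit and the study's methods as a total RNA kit, so that whether poly(A) RNA was selected is not settled here. The tool versions of the methods differ as well. The submitters' processing notes name Salmon 0.11.2, R 3.6.0, DESeq2 1.19.11 and the build GRCm38. The authors deposited a normalized signal for 18432 genes in 64 libraries, as estimated read counts divided by size and transcript length factors, which are not whole numbers. Between 24.1% and 52.3% of low values lay within 0.1 read of a whole read, where chance gives 20%, so reads were not recovered and no count test was run. Ensembl IDs were matched to symbols through GENCODE vM21 (18420 matched, 12 did not). Totals of 29200000 to 32600000 per library are scaled and give no depth.

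The members and gene lists were chosen with earlier results of these data known. Levels were tested as log2(value + 1) with limma 3.58.1 (R 4.3.3; trend in variance), for genes with a mean of at least 1 in the fitted libraries, and Benjamini-Hochberg adjusted p-values over all of them were called under 0.05. Genotype and region were each fitted on 8 libraries, age on the 16 WT libraries of a region, and interactions on 16. The *Grin2b* to *Grin2a* ratio was tested by two-sided exact permutation of its log2 value (scipy 1.17.1). Labels call the replicates separate mice without saying which cortex and hippocampus share 1, so p-values measure the spread between these samples only. Alternatives were a pseudocount of 10, a minimum mean of 100 or none, scaling to equal totals, quantile normalization, library weights, 1 fit over all 64 libraries, correction for GC content and length, the replicate number as a block with and without that correction, KI libraries in place of WT, and each library left out in turn. Lengths from the longest transcript, and partner genes without the libraries that stand apart by markers, were added after seeing the data. Named partner genes are the up to 3 called genes per direction with the largest change in each KI comparison, and named similar genes the 3 nearest to each member; a few of these are not reported here. The fit was tested on simulated data for the cortical PWK 28 comparison (18387 genes), with 100 genes changed at each size. It recovered 78% of log2 changes of 0.5 and 100% of those of 1, with 3.78% false calls. The simulated spread followed 1 fixed setting for all genes and both genotypes. In the measured comparison 22.2% of all genes passed. There the SD of *Grin3a* was 24.0% of the mean in KI and 5.9% in WT, and that of *Grin2a* 18.2% and 3.75%. Whether the recovery and false-call rates hold for the measured libraries was not tested. Both sexes were used in the study, though all libraries expressed the Y-linked *Ddx3y* at 826 or more.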

Additional observations from a re-analysis of the deposited data

Results flagged for a closer look

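The KI effect on *Grin3a* at PWK 28 differed between the regions by -1.25 on the log2 scale (interaction term, limma adjusted p = 0.00163), with higher levels in KI cortex and overlapping levels in hippocampus. In 4 of 112 screens of a member or the *Grin2b* to *Grin2a* ratio in a group of 4 libraries, 1 library lay far from the other 3 by Dixon's criterion, which chance exceeds in about 1 of 20 groups. They were WT hippocampus PWK 7 replicate 2 for *Grin1* (18948, the others 16383 to 16453), KI hippocampus PWK 7 replicate 2 for *Grin2b* (20658, the others 23643 to 24158), WT hippocampus PWK 14 replicate 4 for *Grin2d* (379.5, the others 438 to 445) and WT hippocampus PWK 1 replicate 2 for *Grin3a* (4789, the others 5019 to 5056).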

How the results depend on the processing

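Over 3252 alternative values for single subunits, 3044 kept their direction and side of the threshold, and 122 differed in direction while past the threshold in neither analysis (by size at most 0.21 as reported and 0.37 in the alternative). A call was lost by 53 and gained by 31. In 2 more the alternative passed in the direction opposite to a reported value that had not passed, so no reported call was reversed. These 2 were *Grin3a* with KI libraries in place of WT, a change of mice and not of processing. In KI mice it rose from PWK 14 to PWK 28 in cortex (0.68, adjusted p = 0.00946) and was lower in hippocampus than in cortex at PWK 28 (-1.17, adjusted p = 0.000405). With all 64 libraries in 1 fit the members called became, for KI against WT at PWK 14, 1 in cortex (*Grin3a*) and 2 in hippocampus (*Grin2a* and *Grin2d*), then 0 for PWK 14 against PWK 7 in WT cortex and 1 in WT hippocampus, 0 for PWK 28 against PWK 14 in WT hippocampus, 1 between regions at PWK 28, and 1 each for the change of the KI effect from PWK 14 to PWK 28 in cortex and from PWK 7 to PWK 14 in hippocampus. For the KI comparisons of PWK 14 that fit called 1946 genes in cortex and 6050 in hippocampus, against 951 and 2870 as reported. Library weights gave 2 members for PWK 28 against PWK 14 in WT hippocampus, as did the minimum mean of 100, and 1 for the change of the KI effect from PWK 14 to PWK 28 in cortex. KI libraries in place of WT gave 0 members for PWK 14 against PWK 7 in cortex, and 1 in cortex and 0 in hippocampus for PWK 28 against PWK 14. The cause of these shifts was not tested. Same-numbered cortex and hippocampus libraries deviated together with a mean correlation of 0.14 (17 of 32 pairs over 0.1), and same-numbered KI and WT libraries with 0.026 (10 of 32 over 0.1). For different numbers of cortex and hippocampus it was -0.046, a value tied to the 0.14 because each group was centred on its own mean. The labels do not say that equal numbers mark 1 mouse, so the numbers were not taken as pairs in the main tests, and the replicate block was an alternative. Libraries of different genotype or age are different mice, so in those comparisons the block joins mice with no stated link. With the replicate block, alone or with the GC content and length correction, 1 member (*Grin3a*) was called for KI against WT in cortex at PWK 14 and 0 for PWK 14 against PWK 7 in WT cortex, and the block alone gave 0 for PWK 28 against PWK 14 in WT hippocampus. The differences of the ratio between regions stayed at -0.50, -0.37, -0.33 and -0.37 under the replicate block, with p = 0.125 by exact permutation of pairs.

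With each library left out in turn, members called ranged from 0 to 1 for KI against WT at PWK 14 in either region and from 1 to 2 for cortex at PWK 28. They ranged from 0 to 1 for PWK 14 against PWK 7 in WT cortex, from 0 to 2 for PWK 28 against PWK 14 in WT hippocampus, and from 3 to 5, 2 to 3, 2 to 3 and 1 to 3 between regions at PWK 1, 7, 14 and 28. For the change of the KI effect in cortex from PWK 7 to PWK 14 and from PWK 14 to PWK 28 they ranged from 0 to 1. The libraries without which counts changed by more than 1.5 times included KI cortex PWK 14 replicate 4 and KI hippocampus PWK 14 replicate 2, which each gave 1 member when left out. Without WT hippocampus PWK 14 replicate 3, 2 members were called for PWK 28 against PWK 14. Between regions at PWK 28, 1 member was called without cortex replicate 2, 3 or 4. Depth is unknown, so that the 4 libraries of a group set the precision.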
